A study of Mus musculus with 19 samples.

Results

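Upstream open reading frames (uORFs) are short reading frames whose start codon lies in the 5′ leader of a messenger RNA, before the start of the main protein-coding frame. Here they are all ORFs that the authors' 5 ORF lists typed as uORF or Overlap_uORF in any row and that no row of any list typed as annotated. There were 270 such upstream ORFs among 21663 different listed ORFs (1.25%). A further 10 ORFs carried an upstream type on one transcript and the annotated type on another and were left out. The 270 ORFs lay in 237 host genes. Of these, 128 ended before the main start codon (uORF), 140 ran across it (Overlap_uORF) and 2 carried both types on different transcripts.

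A ribosome that scans from the 5′ cap can start at an upstream AUG, and it then has to resume scanning or bypass that AUG to reach the main frame. A uORF therefore often lowers translation of the main frame, and an overlapping one leaves no room to restart before the main start. Textbook cases are Atf4 and Atf5, transcription factors of the integrated stress response whose overlapping uORFs keep their proteins low until the initiation factor eIF2 is phosphorylated.

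The study compared the translatome of mouse (C57BL/6) organoids derived from lung adenocarcinoma (LUAD) with that of organoids of alveolar type 2 (AT2) cells, which make surfactant and serve as progenitors of the alveolus. All organoids were plated for 48 h on Matrigel-washed plates and then given 100 µM cycloheximide, which arrests elongating ribosomes, for 5 min. Footprints, the RNA stretches protected by ribosomes, were collected with RiboLace. ORF lists came from 3 LUAD and 2 AT2 libraries, which the study describes as independent tumour-derived organoids and independent cultures, and estimated counts came from 4 LUAD and 3 AT2 footprint libraries and 4 LUAD and 3 AT2 RNA libraries. The labels give no tumour genotype for these groups beyond a short title code, no sex or age, and no statement that the footprint and RNA libraries were separate cultures, so p-values on those libraries measure the spread between them, which may be technical.

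The deposited RPKM scales the in-frame P-sites (the footprint position at the ribosome's peptidyl site) of an ORF to its length and a library total. That total was 11.82, 2.73 and 3.08 M for the LUAD lists and 2.70 and 1.42 M for the AT2 lists. It was worked out from the RPKM, not counted on listed ORFs. P-sites on annotated ORFs numbered 3605301, 630471 and 494899 in LUAD and 77706 and 215528 in AT2, in another order than the totals. The LUAD lists held 13380, 8122 and 5372 ORFs and the AT2 lists 2597 and 4426. Footprint libraries held 4.80 to 14.25 M estimated counts in LUAD and 3.03 to 3.83 M in AT2, and RNA libraries 27.18 to 33.20 M in LUAD and 4.12 to 10.23 M in AT2. AT2 footprint library 1 stood apart, with 54.0% of its counts in 10 transcripts against 4.70% to 9.62% in the other footprint libraries. LUAD libraries 1 and 2 resembled each other, as did 3 and 4, in both assays. Of 6 AT2 markers tested, 5 were lower in LUAD in both assays, among them the lung transcription factor Nkx2-1 at 0 to 0.507 footprint CPM, normalised counts scaled to library size with edgeR's TMM method, in LUAD against 70.3 to 397 in AT2. Markers of other cell types also moved. Of 7 AT1 (flat alveolar cell) markers, 5 could be paired with a transcript, of which Ager was not tested in either assay alone. The other 4 summed to 56.6 to 117 footprint CPM in LUAD and 494 to 1323 in AT2. Of these 4, Cldn18 and Aqp5 were lower in LUAD in both assays, Cav1 was higher in RNA and Rtkn2 passed in neither. The 2 of 7 macrophage and leukocyte markers that could be paired, Mrc1 and Cd14, summed to 77.6 to 101 footprint CPM in LUAD and 8.68 to 8.89 in AT2. The 4 of 8 gastric and gut markers that could be paired summed to 111 to 244 footprint CPM in LUAD and 13.3 to 57.1 in AT2, and Bgn, the 1 of 6 fibroblast markers paired, had 41.5 to 104 in LUAD and 2.65 to 3.56 in AT2. The ciliated marker Tubb4b and the basal marker Lamb3 had 790 to 1839 and 340 to 412 in LUAD and 467 to 1396 and 707 to 1153 in AT2, and 0 of 3 club and 0 of 3 endothelial markers could be paired. The part these cell types play in the host gene values below was not tested, and in bulk samples fewer cells of a type and less RNA per cell cannot be told apart.

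The start sites are shown first because the start codon and its flanks are what a scanning ribosome reads. RefSeq's promoter table (GRCm38.p6, the same assembly as mm10) covers 250 bases before to 50 bases after each gene's start. The starts of 73 of the 270 upstream ORFs fell inside it. Atxn7l1 and Bzw2 each hold ORFs that share a start, and such a start was counted once per ORF. In all 73 the genome held ATG at the listed start. The windows printed below give 12 bases before the start codon, the start codon in capitals and 9 bases after it, on the strand of the gene. The first set holds uORFs that end before the main start. Ifrd1 encodes a transcriptional coregulator with a long-known uORF, Btg1 an antiproliferative protein, Wasl the actin regulator N-WASP and Sys1 a Golgi membrane protein.
Ifrd1 (chr12:40223147-40223170, minus strand): ctagagagaaacATGtatcgtttc
Btg1 (chr10:96617014-96617037, plus strand): tcggagctggaaATGcaactctcg
Wasl (chr6:24664965-24664988, minus strand): gcccccgctgccATGttggattgt
Sys1 (chr2:164460753-164460776, plus strand): tccctcctaggaATGgacctgctg
The second set holds ORFs that run across the main start. Serbp1 encodes an mRNA- and ribosome-binding protein, Tagln2 an actin-binding transgelin, Chmp5 a subunit of the ESCRT-III membrane complex, Gtf2h5 a subunit of transcription factor TFIIH and Rnf10 a RING finger protein.
Serbp1 (chr6:67266918-67266941, plus strand): cctacaggccccATGgtgccgtgc
Tagln2 (chr1:172500044-172500067, plus strand): tatggctggtgaATGcaggttgag
Chmp5 (chr4:40948502-40948525, plus strand): ctgcgcctgcgcATGgggtggggg
Gtf2h5 (chr17:6079805-6079828, plus strand): gtcgcaggcgcgATGacgtacggc
Rnf10 (chr5:115272883-115272906, minus strand): gggttcttggagATGctgtttggc
The last set shows 2 members whose start, despite the upstream type, is also the start of a listed annotated ORF. Ltf encodes the secreted iron-binding protein lactoferrin and Smdt1 encodes EMRE, a subunit of the mitochondrial calcium uniporter.
Ltf (chr9:111019314-111019337, plus strand): aagaccacagacATGaggctgctc
Smdt1 (chr15:82346032-82346055, plus strand): aggccgccttggATGcgtggggtg

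Efficient mammalian start codons usually have a purine (A or G) at position -3 and a G at position 4, counted with the A of ATG as position 1 and no position 0. Of the 73 upstream starts, 34 (46.6%) had a purine at -3, against 1004 of 1195 annotated starts (84.0%) found in the same table. A G at position 4 followed 23 upstream starts (31.5%) and 70.9% of annotated starts. Both bases were present at 16.4% of upstream starts and 64.1% of annotated starts, and neither at 38.4% of upstream and 9.21% of annotated starts. The shared Atxn7l1 and Bzw2 starts, counted once per ORF, had neither base. Overlapping ORFs had a purine at -3 in 35.9% of 39 windows and ORFs ending before the main start in 57.6% of 33 windows. These are counts over the covered starts, all near a gene's first base, and no test was made on them.

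Of the 270 upstream ORFs, 43 shared a start codon or a stretch of residues with a listed annotated ORF. In 32 the start codon was also the start of an annotated ORF, and 34 shared a stretch of 20 or more residues with one. Whether that annotated ORF belonged to the same gene was not checked, so some matches may be to another gene. These 43 were 30 of the uORF type, 12 Overlap_uORF and 1 of both types. In LUAD-listed members without such sharing, the transcripts that carry the ORF held a median of 76.9% of the host's estimated RNA counts (182 members), against 3.80% in the 38 that shared a start or stretch. In AT2-listed members the medians were 24.4% (51 members) and 2.07% (8 members). Ltf is an example: its carrier transcript had 0 estimated RNA counts in all libraries except LUAD library 4, which had 5.19, or 0.504% of the gene's counts. The carrier of the Ly6e ORF held 0.010% to 0.063% of Ly6e RNA in LUAD. Some results below are also given without the 43.

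The upstream ORFs were short. Their median length was 57 codons, the range was 20 to 436 codons, and 229 were under 100 codons, while listed annotated ORFs had a median of 471 codons. The lists hold no ORF below 20 codons, a length 7 upstream ORFs had. Those ending before the main start had a median of 46.5 codons, began a median of 75.5 bases from the transcript's 5′ end and stopped a median of 90.5 bases before the main start. In 51 of them the stop codon lay under 50 bases from the main start. Overlapping ORFs had a median of 72 codons and shared a median of 92 bases with the main frame, at most 533. None of the 140 was in the frame of the main ORF, as the type requires, and the offset was 1 base for 80 and 2 bases for 60. The longest were in Ltbp3 (436 codons), a TGF-beta binding matrix protein, Rnf10 (208 codons) and Daxx (204 codons), a histone chaperone. Ltbp3 had 71, 33 and 44 P-sites in frames 0, 1 and 2 in LUAD list 1, where frame 0 is the frame of the upstream ORF, Rnf10 had 44, 21 and 25 in LUAD list 2, and Daxx had 6, 1 and 3 in AT2 list 1.

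Many members share sequence with each other. Of the 237 host genes, 31 held more than 1 upstream ORF. In all, 60 members overlapped another member of the same host in genomic span, and 37 ended on the same last base as another, so their P-sites are not independent.

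Few upstream ORFs were listed more than once. Of the 270, 239 stood in 1 list, 30 in 2 lists and 1 in 3 lists, and none in all 5. Thus 31 (11.5%) were listed repeatedly, against 6385 of 13381 annotated ORFs (47.7%). The 31 repeated ORFs were found in LUAD lists only in 16 cases, AT2 lists only in 4 and both kinds in 11. The one in 3 lists was Fem1b, the substrate receptor of a CUL2 ubiquitin ligase. Its 60-codon ORF overlaps the main start by 77 bases and had 36, 12 and 12 in-frame P-sites in LUAD lists 1, 2 and 3, with 7 and 9, 2 and 6, and 3 and 10 in frames 1 and 2 of those lists. In both kinds of organoid the lists held, among others, Gtf2h5, Spcs2 (a signal peptidase subunit), Hdac7 (a histone deacetylase) and Ucp2.

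LUAD lists held more upstream ORFs than AT2 lists in number, while their shares of all listed ORFs did not separate the groups. The numbers were 100, 73 and 66 in LUAD and 47 and 16 in AT2, so the groups did not overlap. The difference of 48.2 ORFs had p = 0.1 in an exact two-sided permutation test over lists, the smallest p that 3 lists against 2 allow. As a share of all ORFs listed they were 0.747% (exact binomial 95% interval 0.609% to 0.908%), 0.899% (0.705% to 1.13%) and 1.23% (0.951% to 1.56%) in LUAD. In AT2 they were 1.81% (1.33% to 2.40%) and 0.362% (0.207% to 0.586%). The 2 AT2 lists were thus the highest and the lowest of the 5, and the LUAD minus AT2 difference of -0.13 percentage points had an exact p = 0.8. It changed sign, to 0.597, without AT2 list 1. Intervals cover counting error only. LUAD list 1, with the most P-sites, alone held 81 of the 239 ORFs listed once. LUAD list 2 held more upstream ORFs than LUAD list 3. Its total behind the RPKM was smaller (2.73 against 3.08 M), but its P-sites on annotated ORFs were more (630471 against 494899). The part of depth in listing was not tested.

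**Figure D1:**
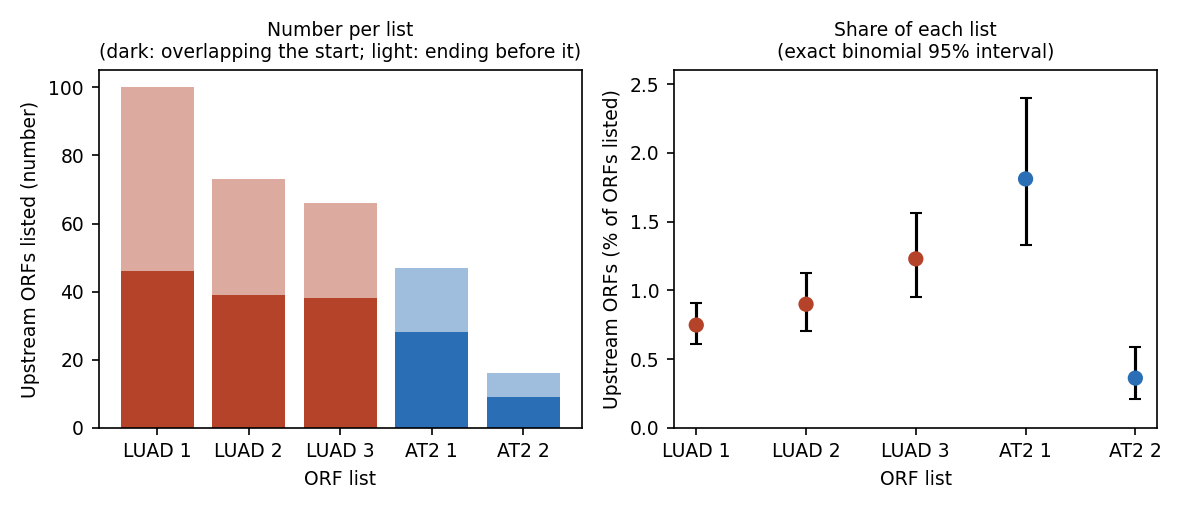
Upstream ORFs in each of the 5 ORF lists, as a number (left; dark, overlapping the main start; light, ending before it) and as a percent of all ORFs in the list with its exact binomial 95% interval (right). LUAD lists held 66 to 100 and AT2 lists 16 and 47, while the shares of the AT2 lists, 1.81% and 0.362%, enclose the LUAD shares.

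Most upstream ORFs rested on few P-sites. The highest in-frame count of a member in any list had a median of 14 and ran from 5, the lowest the lists hold, to 627. It was under 10 in 88 members, at least 50 in 26 and at least 100 in 14. Of those 14, 4 shared a start or stretch with an annotated ORF. The authors' p-value for in-frame excess was above 0.01 in 176 of 270 members (65.2%), against 38.0% of annotated ORFs, and under 0.001 in 11. The lowest, 8.21e-05, belonged to Smdt1.

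P-sites on upstream ORFs lay mostly in frame. Summed over the members of a list, frame 0 held 57.8%, 58.7% and 53.5% of P-sites in LUAD lists 1, 2 and 3 and 60.5% and 55.8% in AT2 lists 1 and 2, where equal frames would give 33.3%. The groups overlapped, and the LUAD minus AT2 difference of -1.49 points had an exact permutation p = 0.7. Without the 43 ORFs that share a start or stretch it was -0.42 points (exact p = 0.7). Annotated ORFs of the same lists had 47.8%, 46.8% and 44.1% in LUAD and 46.4% and 47.4% in AT2. Upstream ORFs were higher in 5 of 5 libraries, by 10.7 points on average, with p = 0.0625 in an exact two-sided sign-flip test, the smallest p that 5 libraries allow. The lists hold only ORFs with an in-frame excess, and the part that this selection plays at low counts was not tested. Against annotated ORFs of up to 100 codons, with 54.4%, 54.1% and 50.7% in LUAD and 58.3% and 53.3% in AT2, the mean difference was 3.10 points, again in 5 of 5 libraries (exact p = 0.0625). Single members weighed heavily: Ly6e gave 40.1% of in-frame P-sites in LUAD list 3, and Scd2 gave 22.2% in AT2 list 2 and 10.5% in LUAD list 1.

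**Figure D2:**
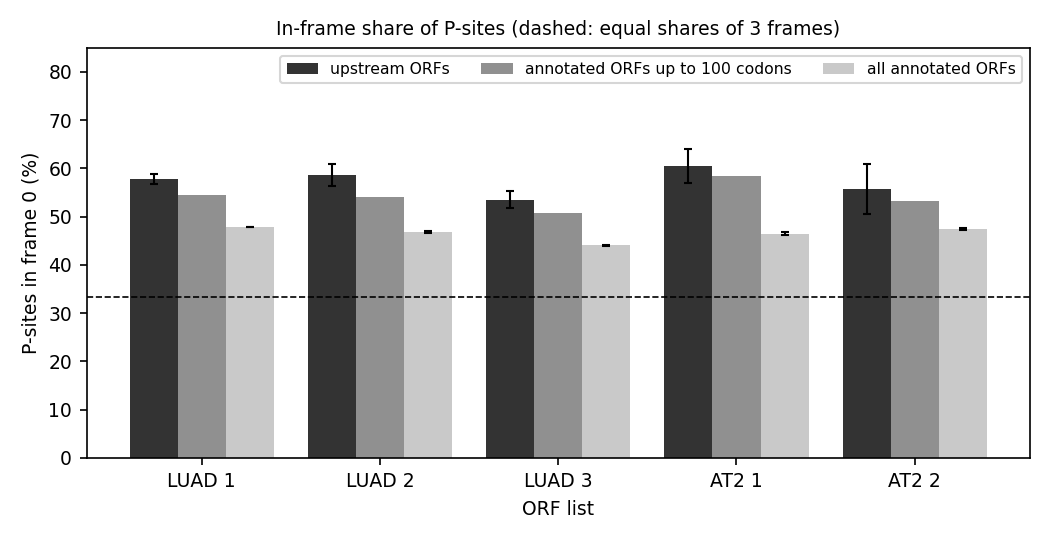
Percent of P-sites in frame 0 for upstream ORFs (black), annotated ORFs up to 100 codons (grey) and all annotated ORFs (light) in each ORF list, with exact binomial 95% intervals on the black and light bars. Upstream ORFs were at 53.5% to 60.5% and all annotated ORFs at 44.1% to 47.8%, and the dashed line marks equal frames.

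Part of an overlapping ORF is also read in the main frame. Of the P-sites outside frame 0 in overlapping ORFs, 54.8%, 64.6% and 53.1% lay in the main frame in LUAD lists 1, 2 and 3, and 57.9% and 39.7% in AT2 lists 1 and 2. In LUAD list 3 the excess of the main frame rested on Ly6e, with 360 P-sites in the main frame and 265 in the remaining one. Without Ly6e the counts there were 261 and 284 (47.9% in the main frame). Over all overlapping ORFs of that list, 11 had more P-sites in the main frame than in the remaining one and 22 had fewer. AT2 list 2 had 3 ORFs with more and 5 with fewer, and the others had 27 and 18, 22 and 15, and 15 and 8 (LUAD lists 1 and 2 and AT2 list 1). The direction thus differed between lists.

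Atf4 gave the textbook pattern of positions. Its 59-codon upstream ORF (chr15:80255681-80256381, plus strand) starts 97 bases before the main start and overlaps the main frame by 83 bases. Frame 0, 1 and 2 held 174, 88 and 116 P-sites in LUAD list 1 and 28, 13 and 13 in LUAD list 2. It had 2.95 in-frame P-sites per codon in LUAD list 1, against 0.716 on the Atf4 main ORF, a 4.12-fold higher density. It was not in LUAD list 3 or either AT2 list. Its carrier transcripts held 97.3% to 99.95% of Atf4 RNA in the 7 RNA libraries, those of AT2 included.

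Atf5 held 2 nested ORFs of 58 and 63 codons that end on the same base, each overlapping the main start by 56 bases. They had 54, 1 and 12 and 41, 1 and 10 P-sites in frames 0, 1 and 2 in LUAD list 1. With 80.6% in frame, the 58-codon ORF was among the cleanest of the well-covered members, and the authors' p-value for it was 0.000437. Slc7a1, the arginine and lysine transporter, held a 57-codon uORF that stops 38 bases before the main start, with 16, 6 and 7 P-sites in LUAD list 3. Ifrd1 held the 52-codon uORF shown above, with 12, 8 and 1 P-sites in LUAD list 3. Asnsd1, whose uORF is known to encode a small protein of a chaperone complex, held a 99-codon uORF with 6, 1 and 1 P-sites in LUAD list 2.

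Ucp2, a mitochondrial carrier protein with a uORF known to limit its translation, was the only host of this known group listed in AT2. Its 36-codon uORF had 14, 2 and 2 P-sites in AT2 list 2. A 66-codon form that ends at the same stop had the same counts there and 12, 6 and 4 in LUAD list 1. The carrier of the 66-codon form had 0 estimated RNA counts in all 7 RNA libraries, while that of the 36-codon form held 88.6% to 95.3% of Ucp2 RNA in LUAD and 81.1% to 89.0% in AT2. In all, 6 of the 25 genes listed as known uORF genes were hosts here, among 15 that could be paired with transcripts.

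Of the 31 scanning and start selection factors that could be paired with transcripts, 4 were hosts, as was 1 of 12 genes for eIF2 kinases, exchange factor and phosphatase, where 3.25% of all paired genes were hosts. Eif5, the factor that triggers GTP hydrolysis when a start codon is found and which is known to be held in check by its own uORFs, held ORFs of 97 and 61 codons that overlap its main start by 64 bases. They had 225, 153 and 179 and 180, 90 and 167 P-sites in frames 0, 1 and 2 in LUAD list 1, and share their end. Their in-frame shares, 40.4% and 41.2%, were low for the lists. Bzw2, an eIF5 mimic, had a 38-codon uORF with 20, 0 and 8 P-sites in LUAD list 1. The other factors of the list were Eif4g1, the scaffold of the cap-binding complex, with 2 uORFs, and Eif5b, the subunit-joining GTPase. Outside the list, Eif4e2, a cap-binding protein, had a 49-codon uORF and Eif5a, a factor that acts in elongation, a 41-codon overlapping ORF. Eif2ak3 (PERK, an eIF2 kinase) had a 154-codon ORF with 5, 3 and 0 P-sites in AT2 list 1.

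The members with the highest counts, named after their values were seen, were Ly6e, Scd2 and Elof1. Scd2, a stearoyl-CoA desaturase, held a 47-codon uORF that stops 178 bases before the main start, with 553, 233 and 230 P-sites in LUAD list 1 and 45, 38 and 18 in AT2 list 2. Elof1, a transcription elongation factor, held a 37-codon ORF with 304, 102 and 40 P-sites in LUAD list 1, but its carrier transcript held 0.883% to 1.29% of Elof1 RNA in LUAD. The Ly6e ORF, with 627, 360 and 265 P-sites in LUAD list 3, begins 4 bases before the main start and shares a stretch with a listed annotated ORF. Fam107b (41 codons) had 210, 44 and 85 and Serbp1 (86 codons) 181, 49 and 93 in LUAD list 1. Their carriers held 0% to 0.082% of Fam107b RNA and 2.27% to 3.50% of Serbp1 RNA in LUAD, while that of the Scd2 ORF held nearly all Scd2 RNA.

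**Figure D3:**
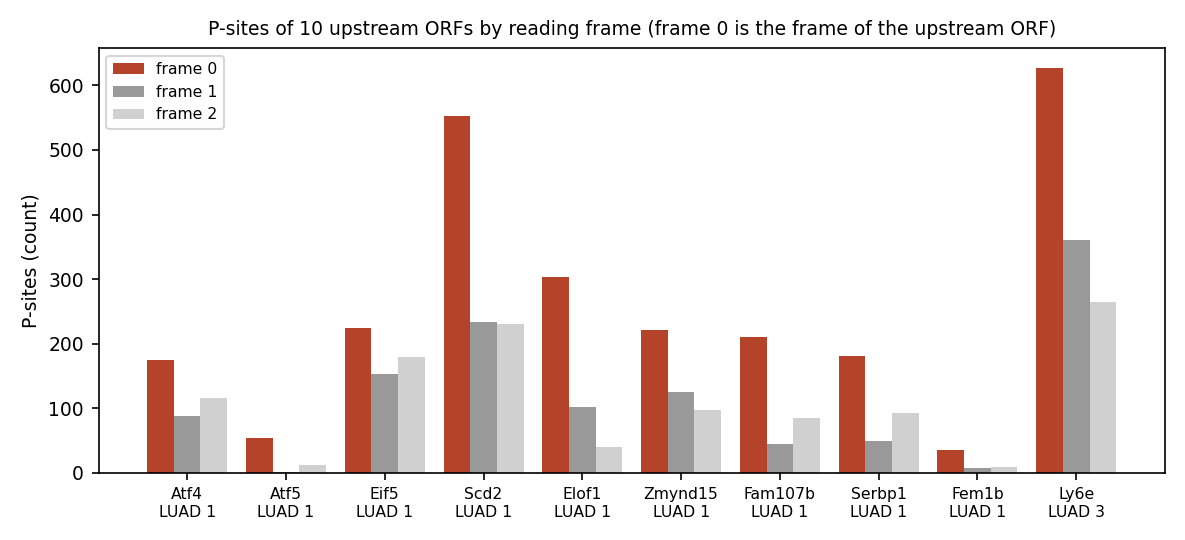
P-sites in the 3 reading frames for 10 upstream ORFs in the list named under each gene, as counts, with frame 0 the frame of the upstream ORF. Frame 0 was the highest in each, from 36 in Fem1b to 627 in Ly6e, and Eif5 had the most even frames.

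Where an upstream ORF and an annotated ORF of its host stood in the same list, the upstream ORF usually had more in-frame P-sites per codon. Such pairs numbered 65, 35 and 22 in LUAD lists 1, 2 and 3 and 5 and 10 in AT2 lists 1 and 2, and covered 128 members. The annotated ORF with the most in-frame P-sites was taken, on any transcript, so it can be a short form. For Srpk1 it had 35 codons in AT2 list 1 and 648 in AT2 list 2. Some pairs had equal counts on both ORFs, such as Srpk1 in AT2 list 1 (40 each), where the ratio is one of lengths. Whether paired ORFs share P-sites was not tested. With a pseudocount of 0.5 P-sites, the upstream ORF was the denser in 110 of 137 pairs. That count includes a few pairs of equal or lower density without it, such as Uba1 in AT2 list 2 (0.970-fold). The median log2 ratio was 0.57, 1.04 and 0.89 in LUAD and 0.09 and 1.27 in AT2. These groups overlapped, and the difference of 0.15 had an exact permutation p = 0.8. Among pairs whose upstream ORF shares nothing with an annotated ORF, the upstream ORF was denser without the pseudocount in 81 of 103. Their median log2 ratios, with the pseudocount, were 0.64, 1.04 and 1.07 in LUAD and -0.33 and 0.73 in AT2, where AT2 list 1 had 2 such pairs. The lists hold no ORF under 5 in-frame P-sites, so the ratio describes listed pairs, and the part of this minimum in the high ratios of short ORFs was not tested. The remaining 142 members had no annotated ORF of their host in any list where they stood.

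The highest ratios, named after their values were seen, were in LUAD list 1. Zmynd15, a zinc finger gene, had 221 in-frame P-sites on a 144-codon uORF and 48 on its 696-codon main ORF, a 22.3-fold density. Kirrel, a cell adhesion protein, had a 15.9-fold and Cyhr1 a 10.6-fold density on ORFs of 20 and 21 codons. At the low end, a 43-codon Atp5j2 ORF had 0.307 times the density of its main ORF in LUAD list 2. Scd2 had a 1.94-fold, Elof1 a 6.62-fold and the 97-codon Eif5 ORF a 1.46-fold density in LUAD list 1. Fem1b stayed near its main ORF, at 1.17-fold in LUAD list 1 and 1.59-fold in LUAD list 3.

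**Figure D4:**
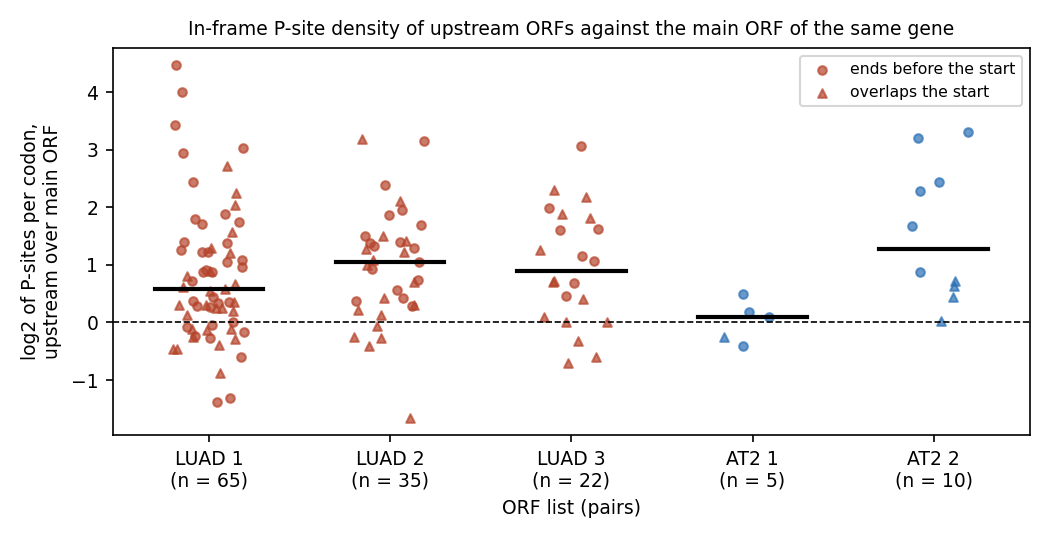
Log2 ratio of in-frame P-sites per codon, upstream over main ORF, for every pair listed together, by ORF list (circles, ORFs that end before the main start; triangles, ORFs that overlap it; bar, median). Most points lie above 0, with medians of 0.57, 1.04 and 0.89 in LUAD and 0.09 and 1.27 in AT2.

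No upstream ORF stood in all 5 lists, so P-sites of single members could not be compared between LUAD and AT2, and the comparison was made on their host genes. Host footprints and RNA passed the test at shares close to those of all genes. For footprints, 47 of 228 hosts tested passed an adjusted p under 0.05 (edgeR quasi-likelihood, Benjamini-Hochberg over all genes) where 21.3% of all genes did, 28 higher in LUAD (9.47% of all genes) and 19 lower (11.8% of all genes). For RNA, 91 of 231 hosts passed (37.0% of all genes), 59 higher (19.0% of all genes) and 32 lower (18.0% of all genes). The median host log2 fold change was 0.08 in footprints and 0.18 in RNA, against -0.02 and 0.04 over all genes. Of 228 hosts tested in both, 36 passed in both assays, all 36 in the same direction, or 15.8% of hosts, where 15.4% of all genes tested in both passed and 1026 of those 1030 had the same direction. The footprint count was 30, 28, 29 and 31 without LUAD footprint library 1, 2, 3 or 4, and the RNA count was 56 and 52 without AT2 RNA library 1 or 2.

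Hosts were also counted by the lists in which their ORFs stood. Of 171 hosts tested for footprints whose ORFs were in LUAD lists only, 23 were higher and 10 lower, with a median of 0.18. Of 44 hosts with ORFs in AT2 lists only, 5 were higher and 7 lower, with a median of 0.04. Over all genes with any ORF in LUAD lists only, 414 of 3782 were higher and 341 lower (median 0.06). Over those with any ORF in AT2 lists only, 20 of 475 were higher and 110 lower (median -0.38). These sets are unlike, since a gene was placed by all its listed ORFs and a host by its upstream ORFs alone. A host placed in AT2 only can have other ORFs in LUAD lists. Listing itself requires P-sites in that list, so these medians cannot be set against each other. Of 210 members listed in LUAD only, 33 had carrier transcripts with under 3 estimated RNA counts over the AT2 libraries, and of 48 listed in AT2 only, 8 had under 3 over the LUAD libraries. In 19 members the carriers were under 3 in both groups.

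Among hosts higher in LUAD, Prom1 (the stem cell surface protein CD133) had 368, 399, 267 and 249 footprint CPM in LUAD and 7.12, 4.96 and 32.9 in AT2 (log2 fold change 4.35 ± 0.64 SE, adjusted p = 0.00327 by edgeR). Its RNA was 199, 183, 110 and 107 CPM in LUAD and 0.59, 0 and 0 in AT2, from 4 counts in all. No LUAD library came near an AT2 library in either assay. Its 40-codon ORF overlaps the main start by 97 bases and had 23, 0 and 3 P-sites in LUAD list 1.

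Ltf had 74.1, 99.7, 91.4 and 72.9 footprint CPM in LUAD and 8.00, 1.24 and 11.0 in AT2 (3.66 ± 0.57, adjusted p = 0.00395 by edgeR). Ltf RNA was 65.8, 83.0, 59.0 and 58.0 CPM in LUAD and 0 in all 3 AT2 libraries, at least 376-fold higher in LUAD against a floor of 3 counts over the AT2 group. The groups did not overlap in either assay. Plscr2, a phospholipid scramblase with a close paralogue in Plscr1, was higher by 3.01 ± 0.55 in footprints and 4.10 ± 0.29 in RNA (adjusted p = 0.00774 and 9.38e-05 by edgeR). Acp5, an acid phosphatase of osteoclasts and macrophages whose ORF was listed only in AT2 list 1, was higher in LUAD in RNA (2.46 ± 0.35, adjusted p = 0.00136 by edgeR), with 1.44 ± 0.48 in footprints (adjusted p = 0.0709). The macrophage markers Mrc1 and Cd14, given above, moved the same way, and their part in this value was not tested.

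Zmiz2, a transcriptional coactivator, had 12.7, 14.5, 9.37 and 11.5 footprint CPM in LUAD and 0 in all 3 AT2 libraries, at least 33.3-fold higher in LUAD against a floor of 3 counts over the AT2 group. Its 74-codon uORF nevertheless stood in AT2 list 1, with 6, 1 and 0 P-sites. The ORF's carrier transcripts had 0 estimated RNA counts in all 7 RNA libraries, and Zmiz2 RNA was at most 9.53 CPM in any library, so the list and the count tables disagree for this gene.

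Among hosts lower in LUAD, Timp3, an inhibitor of matrix metalloproteases, had 0.51, 1.37, 0.30 and 0.94 footprint CPM in LUAD and 313, 143 and 70.0 in AT2 (-7.69 ± 0.68, adjusted p = 0.000476 by edgeR). Its RNA fell by 8.26 ± 0.63 on the log2 scale, and the groups were far apart in both assays. Its 75-codon uORF had 5, 1 and 2 P-sites in AT2 list 1. Ssbp3 (-2.75 ± 0.38), Smdt1 (-2.51 ± 0.21) and Agpat1 (-1.73 ± 0.24), a lysophosphatidic acid acyltransferase, were also lower in footprints (adjusted p = 0.0025, 0.000405 and 0.00249 by edgeR). In RNA the largest falls after Timp3 were Lmo7 (-2.54 ± 0.31), the small GTPase Arl5a (-1.86 ± 0.18) and Eif2ak3 (-1.46 ± 0.33), with adjusted p = 0.000704, 0.000243 and 0.011 by edgeR.

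**Figure D5:**
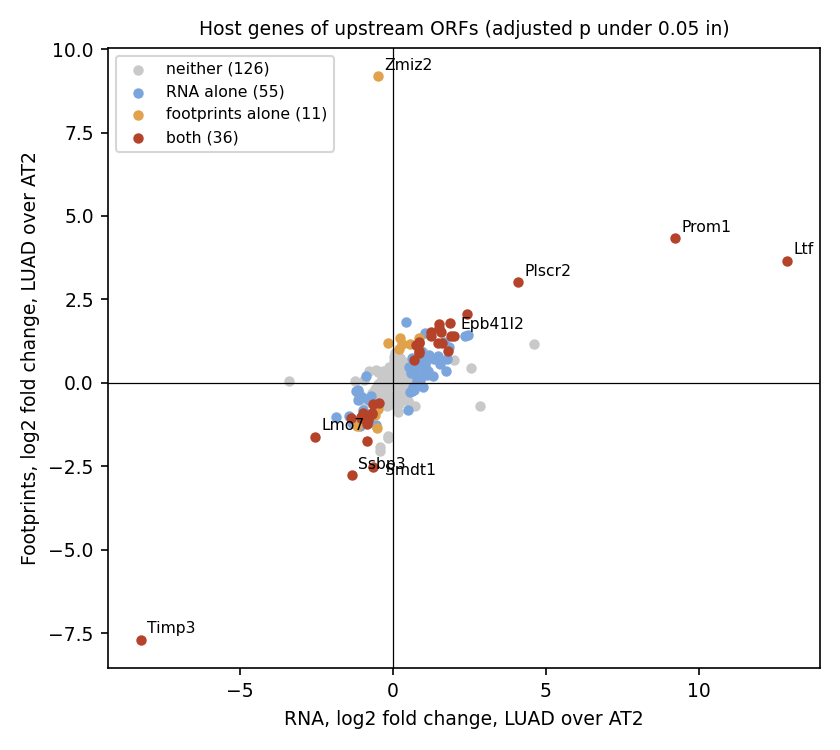
Log2 fold change of host genes in footprints against RNA, LUAD over AT2, coloured by the assay in which edgeR's adjusted p was under 0.05 (counts of genes in brackets). Of 228 hosts, 36 passed in both and lie in the lower left and upper right, and the fitted values of Ltf in RNA and Zmiz2 in footprints depend on AT2 libraries at 0.

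For footprints per RNA, the footprints of a host relative to its message, few hosts passed the test. On counts simulated with a preset spread, the test recovered 1% of 2-fold and 22% of 4-fold changes. That spread was not estimated from these data, so recovery here may differ. Of 232 hosts tested, 0 were higher and 2 lower by the interaction test of edgeR, where 0.720% of all genes passed (0.282% higher, 0.438% lower). At an unadjusted p under 0.05 there were 13 higher and 16 lower, or 12.5% of hosts against 13.7% of all genes. DESeq2 called 5 hosts higher and 9 lower, where it called 375 of 7083 genes. The median over hosts was 0.00, against 0.01 over all genes. The count was 0 without AT2 footprint library 3, LUAD footprint library 2 or 3, or AT2 RNA library 2. There were 18 without AT2 footprint library 1 (423 of 7142 genes) and 6 without AT2 RNA library 3 (246 of 7148 genes). The host count was 1 without AT2 RNA library 1 or LUAD RNA library 3.

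Both hosts that passed carry ORFs that share their start with an annotated ORF. Smdt1 had 30.4, 23.8, 34.5 and 39.3 footprint CPM in LUAD and 163, 187 and 196 in AT2, and 194, 164, 282 and 294 RNA CPM in LUAD and 374, 372 and 365 in AT2. The fall was larger in footprints than in RNA, and footprints per RNA were lower in LUAD (-1.76 ± 0.32, adjusted p = 0.0246 by edgeR), a call lost under 7 of 18 other settings. Its 105-codon ORF stood in LUAD lists 2 and 3, with 52, 12 and 6 and 26, 30 and 8 P-sites, and its frames differ between these lists. Ltf was lower by at least 21.3-fold in footprints per RNA, since its AT2 RNA was at 0 while its AT2 footprints summed to 41 counts (adjusted p = 0.0204 by edgeR, lost under 5 of 18 other settings). Among the 195 hosts tested whose ORFs share nothing with an annotated ORF, 0 passed with edgeR. At an unadjusted p under 0.05, 12 of them were higher and 12 lower, where 13.7% of all genes passed. DESeq2 called 5 of them higher and 5 lower, where it called 375 of 7083 genes.

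Atf4 RNA was 538, 586, 1291 and 1235 CPM in LUAD and 399, 410 and 511 in AT2 (1.05 ± 0.35, adjusted p = 0.0442 by edgeR). Atf4 footprints were 102, 103, 220 and 220 CPM in LUAD and 165, 83.5 and 93.8 in AT2, and did not pass (0.51 ± 0.39, adjusted p = 0.398). LUAD libraries 3 and 4 lay well above LUAD libraries 1 and 2 in both assays, and the RNA call was lost under 5 of 11 other settings. Atf4 footprints per RNA did not pass either (-0.45 ± 0.55, adjusted p = 0.766 by edgeR).

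Slc7a1 was the known uORF gene whose footprints rose. It had 102, 86.0, 91.5 and 94.4 footprint CPM in LUAD and 52.5, 38.0 and 35.2 in AT2 (1.17 ± 0.21, adjusted p = 0.00691 by edgeR), with no overlap. Its RNA was 19.0, 22.2, 32.9 and 28.5 CPM in LUAD and 17.4, 15.7 and 19.4 in AT2 (0.55 ± 0.26, adjusted p = 0.132), with LUAD library 1 inside the AT2 range. Ifrd1 RNA was 125, 124, 301 and 318 CPM in LUAD and 48.3, 46.8 and 111 in AT2 (1.67 ± 0.48, adjusted p = 0.0274 by edgeR). Ucp2 RNA was 53.9, 87.0, 154 and 149 CPM in LUAD and 237, 208 and 265 in AT2 (-1.09 ± 0.34, adjusted p = 0.0378 by edgeR). Both calls were lost under 4 of 11 other settings, and that of Atf5 RNA (0.55 ± 0.19, adjusted p = 0.049) under 9 of 11.

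Over the 15 known uORF genes tested, 1 was higher and 0 lower in footprints, and 4 were higher (Ifrd1, Cebpb, Atf4, Atf5) and 2 lower (Azin1, Ucp2) in RNA. In footprints per RNA 1 was higher, Azin1, the antizyme inhibitor whose uORF is known to respond to polyamines, and 0 lower. The shares over all genes were 9.47% higher and 11.8% lower in footprints and 19.0% and 18.0% in RNA. In footprints per RNA these shares were 0.282% and 0.438%. Azin1 was no host here. Its RNA was 58.4, 48.5, 50.5 and 45.7 CPM in LUAD and 130, 136 and 113 in AT2, its footprints 24.6, 28.8, 34.4 and 33.4 CPM in LUAD and 33.8, 20.3 and 24.6 in AT2. The groups were apart in RNA and mixed in footprints, and footprints per RNA differed by 1.63 ± 0.30 (adjusted p = 0.0291 by edgeR), a call lost under 9 of 18 other settings. The list's median log2 fold change was 0.20 in footprints, 0.14 in RNA and -0.12 in footprints per RNA, against -0.02, 0.04 and 0.01 over all genes.

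Of the scanning and start selection factors, 2 of 29 tested were higher and 0 lower in footprints (median 0.17), and 7 of 30 were higher and 3 lower in RNA (median 0.09). Over all genes 9.47% were higher and 11.8% lower in footprints (median -0.02), and 19.0% higher and 18.0% lower in RNA (median 0.04). Eif5, itself a host, had 575, 692, 821 and 815 footprint CPM in LUAD and 155, 227 and 255 in AT2 (1.77 ± 0.24, adjusted p = 0.00236 by edgeR), and its RNA rose by 1.49 ± 0.18 (adjusted p = 0.000691). The groups did not overlap, and both calls held under all 11 other settings. Bzw1, an eIF5 mimic, was higher in footprints by 1.06 ± 0.22, and Bzw2 was higher in RNA by 1.13 ± 0.31 (adjusted p = 0.0109 and 0.0224 by edgeR), a Bzw2 call lost under 4 of 11 other settings. RNA of Eif4g3 and Eif4b, a scaffold and a helicase cofactor, was lower by -1.74 ± 0.29 and -0.82 ± 0.13 (adjusted p = 0.00302 and 0.00243 by edgeR). Eif4b was the 1 factor of 29 to pass in footprints per RNA, at 1.14 ± 0.21 (adjusted p = 0.0298 by edgeR), a call lost under 11 of 18 other settings.

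Of 12 genes for eIF2 kinases, its exchange factor and its phosphatase, 1 was higher in footprints, the exchange factor subunit Eif2b2 (1.15 ± 0.21, adjusted p = 0.00761 by edgeR). In RNA Eif2b2 was higher and Eif2ak3 lower, and 0 of 12 passed in footprints per RNA with either edgeR or DESeq2, with 0 at an unadjusted p under 0.05. Of 20 ATF4 target genes, 1 was higher (Slc7a1) and 1 lower (Sesn2) in footprints, and 6 were higher and 2 lower in RNA. The medians were 0.23 in footprints and 0.52 in RNA, beside the medians of -0.02 and 0.04 and the shares over all genes given above. In footprints per RNA 0 of the 20 passed with either edgeR or DESeq2, with 0 at an unadjusted p under 0.05 and a median of -0.28. In RNA the rises included Shmt2, a mitochondrial serine hydroxymethyltransferase, at 1.73 ± 0.28 and Phgdh, the entry enzyme of serine synthesis, at 1.60 ± 0.26, while Psat1, of the same pathway, did not pass (adjusted p = 0.00232 and 0.0025 by edgeR). Sesn2, a stress-induced inhibitor of mTORC1, fell by 3.68 ± 0.27 in footprints and by 3.55 ± 0.19 in RNA on the log2 scale. It had 6.85, 7.69, 7.40 and 7.41 footprint CPM in LUAD and 131, 76.9 and 77.1 in AT2. Nupr1 was lower in RNA (-1.28 ± 0.41, adjusted p = 0.041 by edgeR), a call lost under 4 of 11 other settings. Of 6 nonsense-mediated decay factors, 0 passed in footprints with either edgeR or DESeq2, with 0 at an unadjusted p under 0.05, and 1 passed in RNA, Upf3b, higher in LUAD.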

How the data were processed

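The 5 ORF lists, 1 per footprint library, hold P-site counts per ORF and reading frame, an RPKM value and a combined p-value for each ORF, as deposited by the authors. No source used here names the program that called the ORFs. The build was mm10 per the submitters' processing notes. Libraries with the short title code KP are LUAD by their source label. The 14 transcript tables hold estimated counts and TPM from kallisto, per the submitters' processing notes, with no version given. The deposited TPM was not used. The host's annotated ORF with the most in-frame P-sites in the same list, on any transcript, served as the main ORF. A pseudocount of 0.5 P-sites was used for density.

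Estimated counts were summed to genes through the transcript and gene names that the ORF lists pair (22871 transcripts, of which 22509 are among the 118489 in the tables, giving 7266 genes with 65.0% to 70.0% of counts and 236 of the 237 hosts) and rounded to whole numbers. Genes with no listed ORF could not be named and were not tested. Scd2 and Plscr2 have close paralogues, between which kallisto's split of reads is uncertain. The labels give the RNA libraries the extraction protocol of the footprint libraries. No 2 libraries of a group agreed within sampling noise (chi-square per degree of freedom of at least 5.42).

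LUAD was compared with AT2 by edgeR 4.0.16 quasi-likelihood tests (R 4.3.3, TMM scaling, filterByExpr, robust, Benjamini-Hochberg over all genes), footprints per RNA by the interaction in 1 model over 14 libraries, and DESeq2 1.42.0 was the alternative tool. Lists were compared by exact permutation, with Clopper-Pearson intervals. On simulated counts 77%, 83% and 22% of 4-fold changes were recovered for footprints (6835 genes), RNA (7004 genes) and footprints per RNA (7088 genes), and 11%, 9% and 1% of 2-fold changes. The simulation gave every gene the same preset spread, not estimated from these data, and changed a small set of genes. Its recovery need not be that of the real fits. Deviations of RNA libraries with the same replicate number correlated at 0.286, 0.232 and 0.332. The RNA numbers met the criterion for pairs, from the data and not from the labels, but unequal numbers correlated as strongly (0.246 for AT2 1 with LUAD 2, 0.248 for AT2 2 with LUAD 1 and 0.341 for AT2 3 with LUAD 4), so the numbers are not shown to mark pairs. Start windows came from RefSeq's promoter table.

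The members and lists were chosen with earlier results of these data known. Genes named are hosts among known uORF genes, the 3 longest ORFs, the 5 overlapping ORFs with the most in-frame P-sites, up to 4 hosts per comparison and direction with the largest change, at least 50 counts per library (20 for footprints per RNA) and no overlap, and up to 2 per direction of each gene list. Names outside this rule are said to be chosen after their values were seen, or illustrate start sites, known roles or sharing. The planned test of single upstream ORFs between LUAD and AT2 could not be made, since 0 members and 47 ORFs of any type stood in all 5 lists, and density pairs were taken within each list for the same reason.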

Additional observations from a re-analysis of the deposited data

Results flagged for a closer look

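In 4 of 88 groups of 4 LUAD libraries, 1 library lay far from the other 3, about as many as chance gives (about 1 in 20). Acp5 footprints were 24.5 CPM in LUAD library 2 and 18.4 to 18.8 in the others. Eif4b footprints were 679 CPM in LUAD library 1 and 634 to 637 in the others. Ssbp3 RNA was 21.1 CPM in LUAD library 1 and 14.7 to 14.8 in the others. Zmiz2 RNA was 8.44 CPM in LUAD library 3 and 0 to 0.83 in the others.

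For 4 genes the change in footprints differed from the change in RNA by the interaction test of edgeR. The fitted log2 differences were -8.68 for Ltf, -1.76 for Smdt1, 1.14 for Eif4b and 1.63 for Azin1. The fitted value of Ltf depends on its AT2 RNA libraries at 0 and is no bound.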

How the results depend on the processing

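The LUAD minus AT2 difference in the share of upstream ORFs (-0.13 points) was 0.131 with at least 10 in-frame P-sites, 0.220 with the authors' p-value under 0.001, and -0.852 to 0.597 (without AT2 list 1) when a list was left out. The difference in number (48.2) was 32.7 to 63.7 with a list left out and 3.67 at p under 0.001, and that in in-frame share (-1.49 points) -3.88 to 0.898 (without AT2 list 1), with 0.0800 without LUAD list 3. The excess in frame over annotated ORFs (10.7 points) was 9.91 to 11.3 with a list left out, 6.21 as a median over ORFs with at least 30 P-sites and 28.2 at p under 0.001, which left 3 lists. The density difference (0.15) was -0.0407 for ORFs ending before the main start, -0.43 (without AT2 list 1) to 0.74 when a list was left out, and 0.72 without ORFs that share a start or stretch with an annotated one. The last alternative, the comparison with annotated ORFs up to 100 codons and those without the top member were chosen after seeing the data. Causes of these changes were not tested.

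Host calls in footprints (47) were 75 with DESeq2, which called 2082 of 6814 genes, and 28 to 64 with a library left out. In RNA (91) they were 52 to 113 with a library left out. In footprints per RNA (2) they were 14 with DESeq2, which called 375 of 7083 genes. They were 0 to 18 with a library left out and 0 for hosts of unshared ORFs. With the replicate number as a block, calls were 36 in footprints, 105 in RNA and 6 in footprints per RNA. Footprint libraries with the same number deviated together at 0.424, -0.359 and 0.338, so those numbers do not pair them. Across numbers, AT2 footprint library 1 went with LUAD 1 and 2 (0.424 and 0.503). AT2 footprint libraries 2 and 3 went with LUAD 3 and 4 (0.338 to 0.387), and all other footprint values were negative. In RNA, AT2 1 and 2 went with LUAD 1 and 2 (0.232 to 0.286) and AT2 3 with LUAD 3 and 4 (0.332 and 0.341). No fit modelled these groupings, which differ between the assays that footprints per RNA compares. Of 1755 alternative fits for 132 values of single genes, 1634 kept their side of the threshold, 89 lost the call and 32 gained one. Where either fit of a value was called, 0 changed sign, and sign changes between uncalled fits were not counted. Not run, for lack of ORFs in all 5 lists, were the alternatives of the test on single upstream ORFs, and the LUAD minus AT2 in-frame difference at p under 0.001 had no value. Low counts limit the list values: 88 of 270 members never reached 10 in-frame P-sites.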
